A study of Mus musculus with 6 samples.

Results

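Lysophosphatidic acid (LPA) receptors and autotaxin were examined as a group of 7 genes, the receptor genes Lpar1 to Lpar6 and Enpp2, which encodes autotaxin. They were taken by symbol, and all 7 were found by Ensembl identifier among the 46983 genes counted. The data are RNA sequencing counts of mouse embryonic fibroblasts, cultured connective tissue cells, from C57BL/6 embryos of 14 days. The cells were kept in DMEM with 10% fetal bovine serum, were at passage 16 and had no treatment named in the labels. There were 3 libraries labelled SphK2 null and 3 labelled wild type. SphK2 is sphingosine kinase 2, a maker of the lipid signal sphingosine-1-phosphate (S1P), and the labels do not say how its gene was disrupted or whether replicate libraries stand for separate embryos or cultures. P-values therefore rest on a spread between libraries that may be technical. Serum itself carries LPA and autotaxin, and both groups were grown in it.

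LPA is a small phospholipid that signals between cells. Autotaxin is a secreted enzyme that makes it from lysophosphatidylcholine, and cells sense it through G protein-coupled receptors. LPA1, LPA2 and LPA3 belong to the endothelial differentiation gene (EDG) family together with the S1P receptors, while LPA4, LPA5 and LPA6 are closer in sequence to the purinergic P2Y receptors. In fibroblasts, LPA is known for acting on G proteins of the G12/13, Gq and Gi classes, and through the GTPase RhoA it drives stress fibres, migration and serum-response transcription.

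The null-labelled libraries held 16804841 to 19148434 counts and the wild-type-labelled ones 15598566 to 23681718. A count of 3 was worth 0.127 to 0.192 CPM, the count relative to the library total, so lower levels could not be told from 0 in 1 library. Libraries of a group had a Pearson's r of 0.995 to 0.996 over genes, which are not independent replicates, and their counts differed by more than sampling noise in every pair of libraries, with a chi-square of 1.47 to 2.13 per degree of freedom. Sphk2 went against the label, with 49.3, 51.5 and 49.0 CPM in the null-labelled libraries against 28.1, 27.4 and 26.3 CPM in the wild-type-labelled ones (edgeR adjusted p = 4.48e-64). The counts are summed over its exons and do not show whether a part is missing. Of its 4159 exonic bases, 864 (20.8%) are shared with exons of Dbp or Rpl18, and reads over those bases were left uncounted. All 11 fibroblast markers checked were lower in the null-labelled libraries, beside 41.1% of all genes tested. Their summed level was 3357 to 3392 CPM there against 14736 to 15211 CPM in the wild-type-labelled ones. Most of the null-labelled sum was Vim, at 3207 CPM on average. The null-labelled mean was 57.1% of the wild-type-labelled mean for Vim and 35.8% for Pdgfra. Thy1 had no count in the null-labelled libraries. Col1a1 stood at 1.68 ± 0.209 CPM there against 622 ± 17.0 CPM in the wild-type-labelled libraries (SD, n = 3 each). Of 7 epithelial markers, Krt8 was higher and Krt18 lower in the null-labelled libraries, and 5 were not tested for lack of counts. The summed epithelial level was 383 to 410 CPM in the null-labelled against 106 to 110 CPM in the wild-type-labelled libraries, almost all of it Krt8. Markers of pluripotent or trophoblast cells summed to 0.479 to 0.921 CPM in the null-labelled against 113 to 114 CPM in the wild-type-labelled libraries, almost all of it Sox2. Neural markers summed to 435 to 460 CPM in the null-labelled against 314 to 321 CPM in the wild-type-labelled libraries, most of it Nes, while Map2 was lower, Tubb3 did not pass the test and Sox10 was not tested. Adipocyte markers summed to 0.175 to 0.852 CPM in the null-labelled against 9.24 to 9.97 CPM in the wild-type-labelled ones. Almost all of the wild-type-labelled sum was Pparg, at 9.12 CPM on average, while Fabp4, Adipoq and Plin1 were not tested for lack of counts. Endothelial markers summed to 2.00 to 2.93 CPM in the null-labelled against 1.59 to 2.10 CPM in the wild-type-labelled libraries. Leukocyte markers summed to 3.09 to 3.58 CPM in the null-labelled against 3.65 to 3.74 CPM in the wild-type-labelled ones. Pecam1 and Csf1r were higher and Cdh5 and Cd68 lower in the null-labelled libraries, and the other endothelial and leukocyte markers were not tested. The null-labelled libraries are thus low in defining fibroblast transcripts, and in bulk RNA fewer cells of a type and less RNA per cell cannot be told apart. The part of these marker differences in the results below was not tested. Groups are called null-labelled and wild-type-labelled for this reason.

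All 7 genes differed between the labels. Lpar1, Lpar3, Lpar4, Lpar6 and Enpp2 were lower in the null-labelled libraries, and Lpar2 and Lpar5 were higher. A gene counted as different at an adjusted p under 0.05 in edgeR's quasi-likelihood test over all 15199 genes tested. Across the transcriptome this threshold was passed by 79.2% of genes, 38.1% higher and 41.1% lower, so 7 of 7 is not far from the background. The median fitted log2 fold change of the 7 genes (null-labelled over wild-type-labelled) was -4.69, also with Lpar4 at its bound, and that of all genes tested was -0.02. The groups did not overlap in CPM for any of the 7 genes, nor for 79.9% of all genes tested. CPM here use library totals after TMM scaling, which is meant to even out composition. Whether it did so with 79.2% of genes past the threshold was not tested.

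The promoters of the most depleted receptors and of the pair that was higher are shown so that the lower and higher receptors can be set beside each other in sequence. Each window runs from 250 bases before to 50 bases after a transcription start in RefSeq on GRCm38.p6, is printed 5′ to 3′ on the strand of the gene, and has its CpG dinucleotides, the sites of DNA methylation, in capitals. Windows were found for 6 of the 7 genes, the receptors. The Lpar1 window is chr4:58553442-58553741 (minus strand), that of Lpar4 is chrX:106920375-106920674, that of Lpar2 is chr8:69822315-69822614 and that of Lpar5 is chr6:125067670-125067969 (plus strand for these 3).
Lpar1 promoter: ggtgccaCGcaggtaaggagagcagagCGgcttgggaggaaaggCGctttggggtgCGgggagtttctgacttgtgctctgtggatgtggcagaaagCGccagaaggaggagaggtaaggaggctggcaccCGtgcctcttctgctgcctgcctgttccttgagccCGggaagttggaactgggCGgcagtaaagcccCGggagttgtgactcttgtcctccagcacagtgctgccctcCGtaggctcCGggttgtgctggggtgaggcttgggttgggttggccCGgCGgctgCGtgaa
Lpar4 promoter: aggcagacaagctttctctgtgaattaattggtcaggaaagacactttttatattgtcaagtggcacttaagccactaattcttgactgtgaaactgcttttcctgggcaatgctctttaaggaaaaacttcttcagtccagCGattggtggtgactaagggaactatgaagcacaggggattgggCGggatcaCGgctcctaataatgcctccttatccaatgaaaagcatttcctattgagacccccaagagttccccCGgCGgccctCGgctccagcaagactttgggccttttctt
Lpar2 promoter: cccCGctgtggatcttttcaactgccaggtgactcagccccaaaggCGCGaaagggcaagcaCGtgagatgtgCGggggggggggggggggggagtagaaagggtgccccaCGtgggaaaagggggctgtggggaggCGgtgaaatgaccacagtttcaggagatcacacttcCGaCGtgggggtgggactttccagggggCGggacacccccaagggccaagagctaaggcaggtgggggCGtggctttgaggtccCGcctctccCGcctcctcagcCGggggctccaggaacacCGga
Lpar5 promoter: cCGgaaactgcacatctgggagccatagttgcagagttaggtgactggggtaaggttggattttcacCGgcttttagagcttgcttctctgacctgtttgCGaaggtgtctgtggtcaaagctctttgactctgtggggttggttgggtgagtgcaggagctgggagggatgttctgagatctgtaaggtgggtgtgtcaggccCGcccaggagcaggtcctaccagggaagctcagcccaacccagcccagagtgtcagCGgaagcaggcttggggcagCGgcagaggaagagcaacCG
These windows hold 14 CpG (Lpar1), 6 (Lpar4), 15 (Lpar2) and 7 (Lpar5), where the median over 32851 windows of this length was 7. Lpar1 has other annotated starts, with 37 CpG at chr4:58553244-58553543 and 3 at chr4:58499354-58499653, and a second start of Lpar5 has 5. The windows of Lpar3 and Lpar6, not printed, hold 25 CpG and 1 CpG. CpG content therefore did not separate the lower receptors, at 1 to 37, from the higher ones, at 5 to 15. The GC box GGGCGG was found on either strand in all 4 printed windows and in 35.7% of all windows. Each of the other motifs was also searched on both strands. The TATA box TATAAA was in the Lpar4 window (13.6% of all). There it lay on the strand not printed, toward the upstream end of the window. The AP-1 motif TGACTCA was in the Lpar2 window (5.2% of all). The TEAD motif GGAATG was in the Lpar6 window only among the 9 windows of the receptors (14.7% of all). None of these motifs contains another, and a match describes letters only.

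Autotaxin transcripts fell to a small fraction. Enpp2 (ENSMUSG00000022425) spans 54838898 to 54920146 of chromosome 15 on the minus strand in mm10, the build of all gene positions here, with 3473 exonic bases in 27 blocks. It stood at 2.76, 3.03 and 2.98 CPM in the null-labelled libraries against 78.7, 79.0 and 69.3 CPM in the wild-type-labelled ones. The 3 null-labelled libraries lay close together and far below all 3 wild-type-labelled ones. The log2 fold change was -4.69 ± 0.076 (SE, n = 3 per group), so that the null-labelled mean was 3.87% of the wild-type-labelled mean, and the adjusted p of edgeR's test was too small to be represented and was given as 0. In the wild-type-labelled libraries Enpp2 was close per kilobase to the leading receptor, at 21.8 ± 1.59 RPKM (CPM per kilobase of exon, SD, n = 3) beside 20.6 ± 0.956 RPKM for Lpar1, and the ranges of the genes overlapped.

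The EDG-type receptors moved in both directions. Lpar1 (ENSMUSG00000038668), the widely expressed receptor tied to fibroblast migration and fibrosis, spans 58435255 to 58553898 on the minus strand of chromosome 4 with 4289 exonic bases. Its counts were 5, 5 and 3 in the null-labelled libraries against 1983, 1417 and 1654 in the wild-type-labelled ones, or 0.256, 0.292 and 0.160 CPM in the null-labelled against 85.2, 92.9 and 86.5 CPM in the wild-type-labelled libraries. The transcript was thus near the counting limit in each null-labelled library and among the well-measured ones in each wild-type-labelled library. The log2 fold change was -8.51 ± 0.11 (SE, n = 3 per group) with an edgeR adjusted p given as 0, and the ratio of wild-type-labelled over null-labelled counts was 374 (95% counting interval 219 to 703). Ratios of counts and fold bounds, here and below, are scaled by library totals after TMM scaling. Counting intervals cover counting error only.

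Lpar3 (ENSMUSG00000036832), at 146220963 to 146286186 on the plus strand of chromosome 3, is a receptor known from implantation in the mouse uterus. It had 1, 0 and 0 counts in the null-labelled libraries against 40, 20 and 29 in the wild-type-labelled ones. It was scarce in both groups, and the groups did not overlap. The ratio of wild-type-labelled over null-labelled counts was 85.6 with a 95% counting interval of 14.98 to 3419, and the edgeR adjusted p was 1.06e-23. The single count lay in null-labelled replicate 1, and without that library the group had no count and the fitted log2 fold change moved to -7.85, against -5.97 with all libraries, a fitted value that depends on the prior count.

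Lpar2 (ENSMUSG00000031861), the EDG-type receptor known to bind scaffold proteins through its C-terminal tail, lies at 69822429 to 69831102 on the plus strand of chromosome 8. It stood at 28.1, 28.5 and 30.8 CPM in the null-labelled libraries against 18.3, 18.1 and 20.6 CPM in the wild-type-labelled ones. The null-labelled libraries were higher in each case, by a modest amount. The log2 fold change was 0.62 ± 0.063 (SE, n = 3 per group), with an edgeR adjusted p = 1.51e-22. The 781 tested genes of chromosome 8 had a median log2 fold change of 0.64, so Lpar2 differed by about as much as the median gene of its chromosome, and a difference of Lpar2 alone cannot be told apart from that of the chromosome.

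The P2Y-type receptors also split. Lpar4 (ENSMUSG00000049929), which couples to several G proteins including the stimulatory Gs, lies at 106920625 to 106933900 on the plus strand of chromosome X. It had no count in any null-labelled library and 337, 179 and 285 counts in the wild-type-labelled ones, or 14.5, 11.7 and 14.9 CPM. Set at 3 counts over the group, the null-labelled level was at least 257-fold lower, with an edgeR adjusted p = 7.68e-205. Lpar4 was the only one of the 7 genes without a count in 1 of the groups.

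Lpar6 (ENSMUSG00000033446), whose human counterpart is mutated in inherited hair loss, lies at 73237895 to 73243294 on the plus strand of chromosome 14. It stood at 4.25, 3.33 and 4.31 CPM in the null-labelled libraries against 24.3, 24.8 and 22.9 CPM in the wild-type-labelled ones. The transcript fell but remained measurable in every null-labelled library. The log2 fold change was -2.59 ± 0.094 (SE, n = 3 per group), with an edgeR adjusted p = 3.04e-163, and the null-labelled mean was 16.5% of the wild-type-labelled mean. Lpar6 sits within Rb1, the retinoblastoma gene on the opposite strand, and shares 408 of its 5400 exonic bases (7.56%) with Rb1 exons. Reads over those bases were left uncounted, and reads of unspliced Rb1 over the rest cannot be told from Lpar6 because counting did not use strand. Rb1 itself stood at 23.97 ± 1.51 CPM in the null-labelled and 23.5 ± 1.38 CPM in the wild-type-labelled libraries (SD, n = 3 each), and the log2 fold change of 0.04 ± 0.062 (SE) did not pass the test (edgeR adjusted p = 0.609).

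Lpar5 (ENSMUSG00000067714), a receptor known from immune and sensory cells, lies at 125067920 to 125082472 on the plus strand of chromosome 6 with 1515 exonic bases. It had 20, 24 and 18 counts in the null-labelled libraries against 0, 1 and 0 in the wild-type-labelled ones. It was scarce in the null-labelled libraries, at 1.02, 1.40 and 0.958 CPM, and at or near 0 in the others. The ratio of null-labelled over wild-type-labelled counts was 64.4 with a 95% counting interval of 11.1 to 2586, and the edgeR adjusted p was 8.09e-18. The fitted log2 fold change was 5.55, and it moved to 7.46 without wild-type-labelled replicate 2, which held the single count, and to 4.96 without wild-type-labelled replicate 1.

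**Figure D1:**
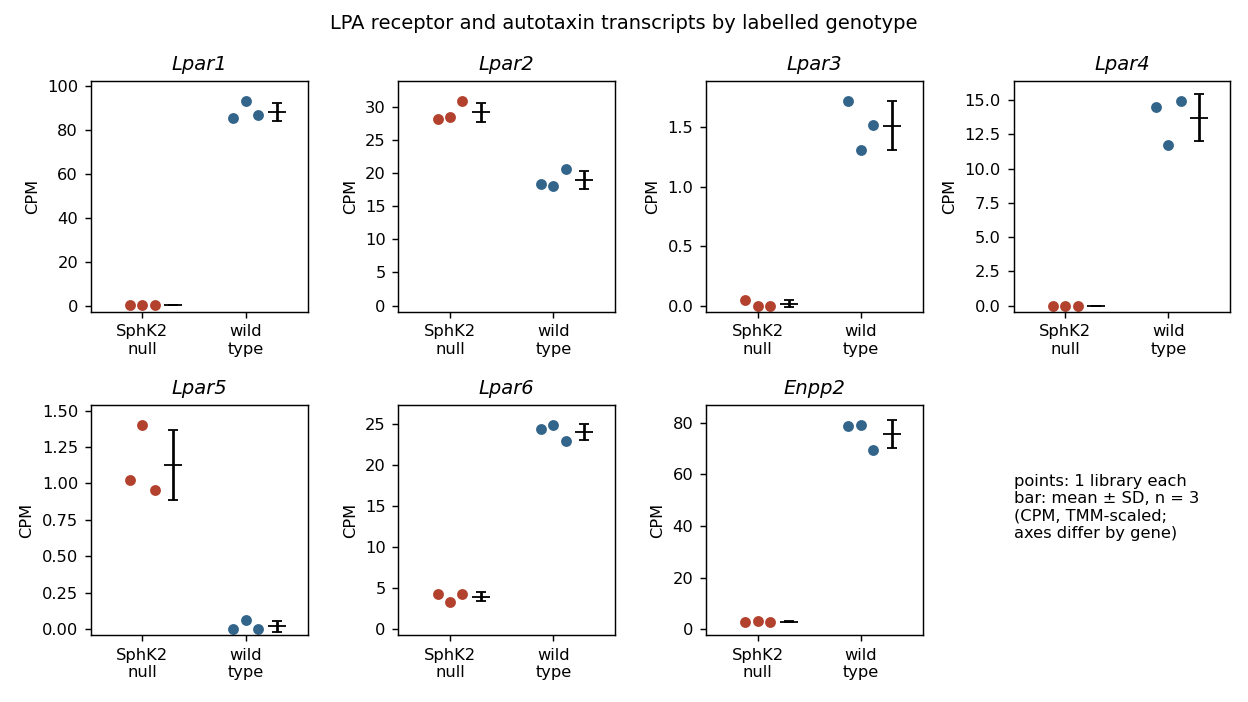
CPM (TMM-scaled, y axis, a scale of its own for each gene) of the 6 LPA receptor genes and Enpp2 in each library, null-labelled at left and wild-type-labelled at right, with the mean and SD of 3 libraries beside the points. The groups do not overlap for any gene, with Lpar2 and Lpar5 higher and the other 5 genes lower in the null-labelled libraries.

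The receptor repertoire changed its leading member. Per kilobase of exon, Lpar2 led in the null-labelled libraries at 4.997 ± 0.249 RPKM (SD, n = 3), more than each other receptor in every library. Enpp2 (0.843 ± 0.041), Lpar5 (0.744 ± 0.157) and Lpar6 (0.734 ± 0.102 RPKM) followed with overlapping ranges, then Lpar1 (0.055 ± 0.016 RPKM) and Lpar3, while Lpar4 was at 0. In the wild-type-labelled libraries the order was Enpp2 and Lpar1 with overlapping ranges, then Lpar6 (4.44 ± 0.191 RPKM), Lpar2 (3.25 ± 0.239 RPKM) and Lpar4 (3.23 ± 0.406 RPKM) with overlapping ranges for the last pair, then Lpar3 (0.615 ± 0.083 RPKM) and Lpar5. Summed over the 6 receptors, the level was 6.54 ± 0.196 RPKM in the null-labelled and 32.1 ± 0.539 RPKM in the wild-type-labelled libraries (SD, n = 3 each). Lpar1 made up 0.845 ± 0.260% of that sum in the null-labelled and 64.0 ± 1.94% in the wild-type-labelled libraries. Lpar2 made up 76.4 ± 1.604% in the null-labelled and 10.1 ± 0.789% in the wild-type-labelled libraries. Lpar5 made up 11.4 ± 2.52% in the null-labelled and 0.044 ± 0.076% in the wild-type-labelled libraries. The share of Lpar6 was 11.2 ± 1.53% in the null-labelled and 13.8 ± 0.559% in the wild-type-labelled libraries. The shares are of transcripts, and receptor protein was not measured.

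**Figure D2:**
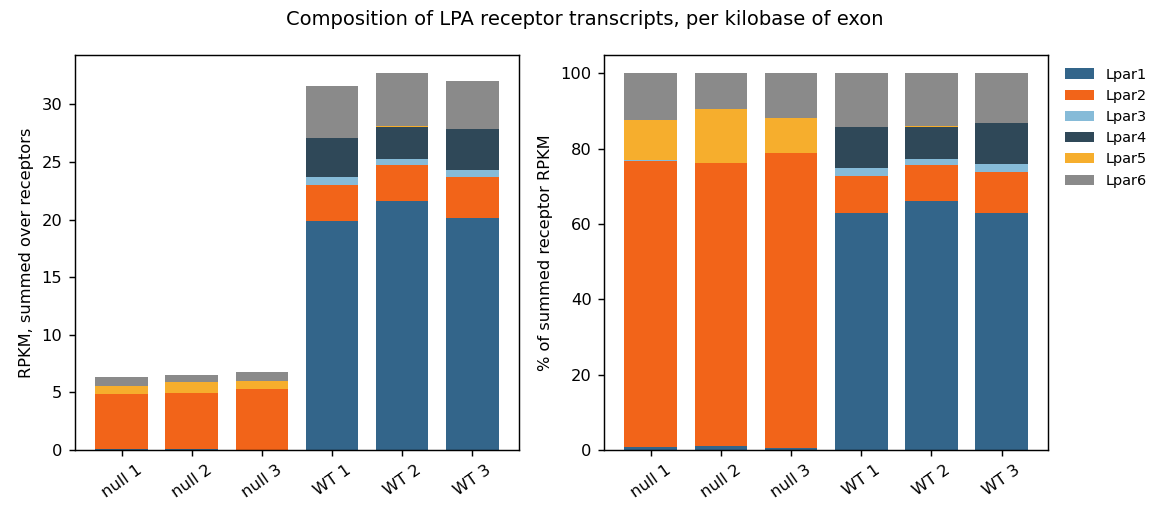
Length-scaled level (RPKM, left) and share of the summed level (percent, right) of each LPA receptor transcript, stacked for each of the 6 libraries, null-labelled before wild-type-labelled. Lpar2 holds 75.2 to 78.2% of the sum in the null-labelled libraries, and Lpar1 holds 62.8 to 66.2% in the wild-type-labelled ones.

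The reads could be assigned among the receptors. No stretch of 51 bases, the read length, was shared between transcripts of any of the 7 genes in the GENCODE M21 annotation. The share of 51-base stretches found in transcripts of other genes was 0% for Lpar1, Lpar3, Lpar4 and Lpar5, 0.086% for Lpar2, 6.54% for Lpar6 and 5.08% for Enpp2. Lpar6 was also the only member with exonic bases shared with another gene.

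A list of 12 other enzymes that make LPA or lipids next to it in metabolism had 10 genes tested. Of these 7 were higher and 1 was lower in the null-labelled libraries, beside 38.1% higher and 41.1% lower among all genes tested. Their median log2 fold change was 0.66, beside -0.02 over all genes. Pla1a, a phospholipase that makes lysophosphatidylserine, stood at 2.89 ± 0.597 CPM in the null-labelled and 0.462 ± 0.163 CPM in the wild-type-labelled libraries (SD, n = 3 each). Liph, a lipase that makes LPA from phosphatidic acid, stood at 3.07 ± 0.147 CPM in the null-labelled against 0.678 ± 0.215 CPM in the wild-type-labelled libraries (SD, n = 3 each). Agk, a mitochondrial kinase of acylglycerols, was higher by 1.103 ± 0.076 (SE) on the log2 scale, and Pld2, which makes phosphatidic acid, by 0.80 ± 0.055 (SE). Of the acyltransferases that form LPA within the cell, Gpat4 was higher, at 260 ± 5.26 CPM in the null-labelled against 171 ± 4.66 CPM in the wild-type-labelled libraries, and Gpam was lower, at 29.0 ± 0.904 CPM in the null-labelled against 35.7 ± 2.30 CPM in the wild-type-labelled libraries (SD, n = 3 each). Of these genes Gpam had the largest edgeR adjusted p, 3.94e-08.

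Among the enzymes that remove LPA, Plpp3 stood apart. This phosphatase, which dephosphorylates LPA at the cell surface, stood at 0.467 ± 0.062 CPM in the null-labelled and 48.9 ± 2.85 CPM in the wild-type-labelled libraries (SD, n = 3 each), a log2 fold change of -6.68 ± 0.12 (SE) with an edgeR adjusted p given as 0. Its relatives differed less, with Plpp1 at -0.60 ± 0.062 (SE) and Plpp2 at 0.26 ± 0.043 (SE). Acp6, a phosphatase of LPA in mitochondria, had 0.96 ± 0.049 (SE), and Agpat5, which acylates LPA to phosphatidic acid, had 0.67 ± 0.041 (SE). Of all 9 genes listed and tested, 6 were higher and 3 lower, with a median of 0.26, where 38.1% of all genes were higher and 41.1% lower. The lipid phosphatase-related proteins, membrane proteins of neurons said to modulate LPA signals, numbered 5, of which 3 were tested, with 1 higher and 1 lower against the same background. Plppr4 was at least 158-fold lower, with 0 counts over the null-labelled libraries against 494 over the wild-type-labelled ones, Plppr2 was higher (0.57 ± 0.079 SE) and Plppr3 did not pass the test (edgeR adjusted p = 0.423).

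The relatives of autotaxin were lower wherever they could be tested. Of 6 other members of the ectonucleotide pyrophosphatase family, 4 were tested and all 4 were lower, against 41.1% of all genes, with a median log2 fold change of -5.22, or -3.71 with the pair at 0 counts set to its bound. Enpp4, with 0 counts over the null-labelled and 391 over the wild-type-labelled libraries, was at least 125-fold lower. Enpp5, with 0 counts over the null-labelled and 167 over the wild-type-labelled libraries, was at least 53.6-fold lower. On the log2 scale Enpp3 differed by -1.67 ± 0.13 (SE), and Enpp1, which makes pyrophosphate from ATP, by -0.59 ± 0.10 (SE). The largest edgeR adjusted p of the 4 was 2.94e-08.

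The S1P receptors, the nearest relatives of the EDG-type receptors, were split too, with 3 lower and 1 higher of 4 tested (all genes: 41.1% lower, 38.1% higher). S1pr1, the main endothelial S1P receptor, had 1 count over the null-labelled libraries against 1055 over the wild-type-labelled ones, and S1pr3 had 1 count over the null-labelled libraries against 364 over the wild-type-labelled ones. S1pr2 stood at 29.0 ± 0.817 CPM in the null-labelled against 63.6 ± 3.38 CPM in the wild-type-labelled libraries (SD, n = 3 each). The higher one was S1pr5, at 0.784 ± 0.223 CPM in the null-labelled against 0.1096 ± 0.095 CPM in the wild-type-labelled libraries (SD, n = 3 each). Among other lysophospholipid receptors, Gpr34, P2ry10, Gpr174 and Gpr55 had too few counts in either group for a test, with at most 2 counts per null-labelled and 5 per wild-type-labelled library.

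Among the G protein alpha subunits that act downstream of the receptors, all but Gnai1 differed by less than 1 on the log2 scale. Of 8 such genes, 4 were higher and 2 lower, with a median log2 fold change of 0.03, and the share past the threshold is near the 79.2% of all genes. Gnai1, an inhibitory subunit, had 1 count over the null-labelled libraries against 129 over the wild-type-labelled ones (ratio of wild-type-labelled over null-labelled 124, 95% counting interval 21.9 to 4939). The more abundant inhibitory subunits were at 513 ± 5.37 CPM in the null-labelled against 407 ± 7.98 CPM in the wild-type-labelled libraries for Gnai2, and at 395 ± 10.2 CPM in the null-labelled against 375 ± 4.83 CPM in the wild-type-labelled libraries for Gnai3 (SD, n = 3 each), both past the threshold. Gna12 was lower at -0.70 ± 0.037 (SE), and its sister Gna13 was higher at 0.33 ± 0.029 (SE). Gnaq and Gna11 did not pass the test (edgeR adjusted p = 0.90 and 0.622).

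Transcripts that LPA or serum is known to induce in fibroblasts went both ways. Of 16 tested, 6 were higher in the null-labelled libraries and 9 lower (median log2 fold change -1.57), beside 38.1% higher and 41.1% lower among all genes tested, so the share higher is near the background. Ptgs2, the inducible cyclooxygenase, stood at 0.287 ± 0.125 CPM in the null-labelled and 59.0 ± 2.06 CPM in the wild-type-labelled libraries (SD, n = 3 each). The early growth response factor Egr1 stood at 0.338 ± 0.093 CPM in the null-labelled against 20.8 ± 0.838 CPM in the wild-type-labelled libraries (SD, n = 3 each). The matricellular gene Ccn1 was lower, with a log2 fold change of -1.91 ± 0.043 (SE), as was Ankrd1, a target of YAP, with -2.82 ± 0.34 (SE). The chemokine genes Cxcl1 and Ccl2 had -2.23 ± 0.046 and -1.89 ± 0.037 (SE), and Hbegf, which encodes an EGF receptor ligand, had -1.25 ± 0.052 (SE). Myc (0.57 ± 0.024 SE), Junb (0.85 ± 0.039 SE) and Ier2 (1.11 ± 0.044 SE) were higher. Of the genes of this list named here, Ankrd1 had the largest edgeR adjusted p, 4.57e-16.

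**Figure D3:**
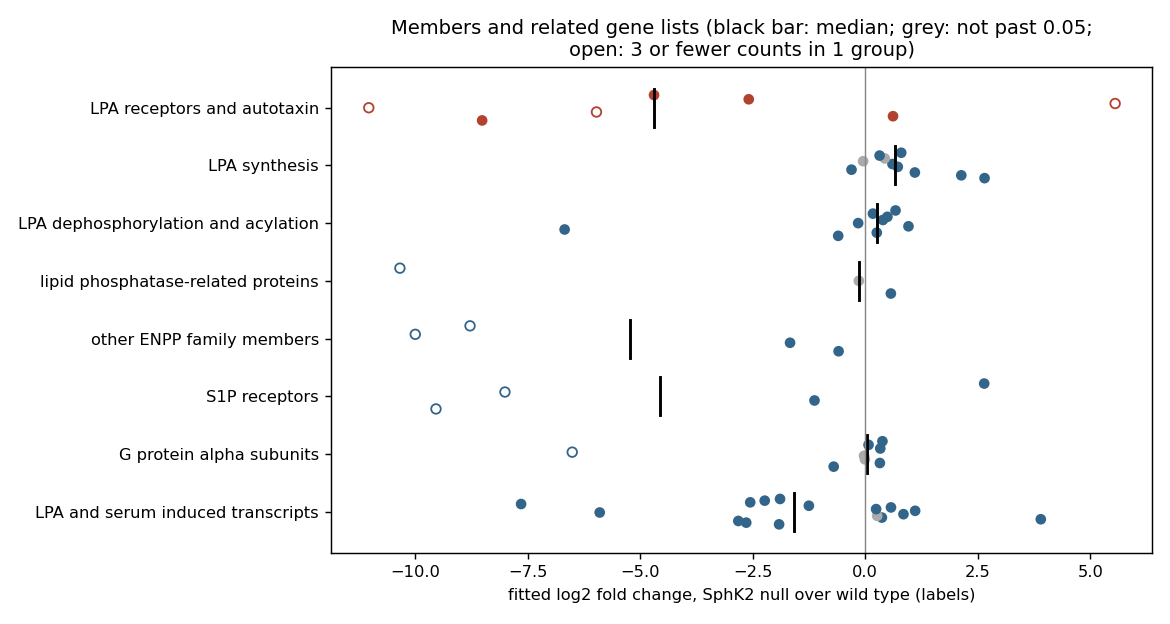
Fitted log2 fold change (null-labelled over wild-type-labelled, x axis) of each tested gene in the group and in the related lists, with the median of each as a black bar, genes not past 0.05 in grey and genes with 3 or fewer counts in 1 of the groups as open circles, whose position depends on the prior count. The 7 LPA receptor and autotaxin genes run from -11.03 (Lpar4) to 5.55 (Lpar5) around a median of -4.69, while the G protein list lies around a median of 0.03.

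The genes around each member were compared with it, a description chosen after the values of the members were seen. Within 500 kb of the 5′ end of Lpar2, 28 other genes were tested, of which 22 were higher and 5 lower, with a median log2 fold change of 0.72. Around Lpar5, 34 of 39 were higher and 3 lower (median 0.70), and the median of chromosome 6 was 0.30. Among all genes tested, 38.1% were higher and 41.1% lower. Lpar2 lay close to the median of its neighbours, whereas the fitted value of Lpar5 was above that of each of its 39 neighbours, the highest of which was Tapbpl at 2.30. The lower members had a mix around them. Of 6 genes near Lpar1, only Svep1, a matrix protein, differed by a like amount, with 0.019 CPM on average in the null-labelled and 7.27 CPM in the wild-type-labelled libraries, and the other 5 lay between -0.41 and 0.29. Near Lpar3, Syde2 (-7.91) was the only one of 10 genes below -1, and Lpar4 had 3 of 4 neighbours below -7, among them P2ry10b, a further receptor gene of the P2Y type, at 0 CPM in the null-labelled against 5.93 CPM in the wild-type-labelled libraries. All 4 genes near Enpp2 were lower (median -1.67), from Taf2 at -0.30 to the matricellular gene Ccn3 at -7.05. Near Lpar6 4 of 6 were lower, beside 41.1% of all genes tested, and Rb1 did not pass the test. The chromosome medians for these 5 members lay between -0.34 (chromosome 14) and -0.04 (chromosome X).

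**Figure D4:**
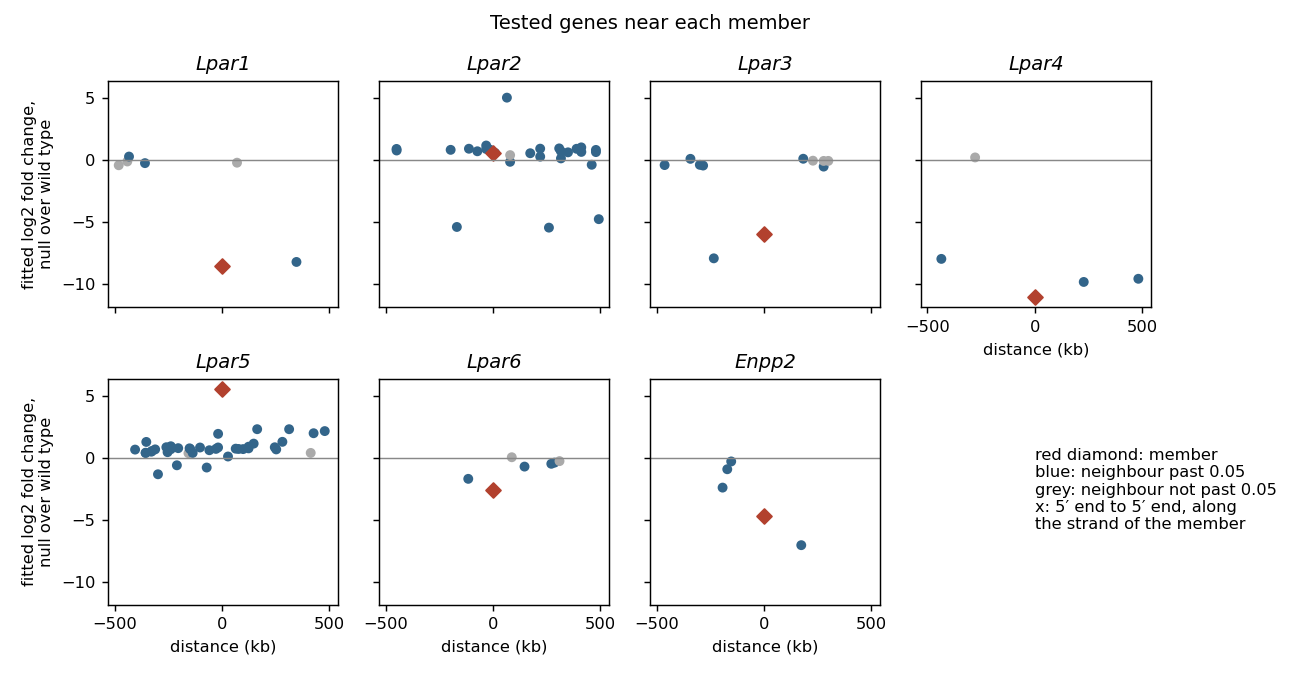
Fitted log2 fold change (null-labelled over wild-type-labelled, y axis) of each member (red diamond) and of the tested genes whose 5′ end lies within 500 kb (circles, grey where not past 0.05), against the distance between 5′ ends in kb along the strand of the member. Lpar2 at 0.62 lies among its neighbours, and Lpar5 at 5.55 lies above all of its own.

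The genes most like each member in pattern were found by the root mean square difference of mean-centred log2 CPM over the 6 libraries, among genes of similar average level. For Lpar1 they were Cdh2 (N-cadherin, difference 0.079), the heparan sulfate sulfotransferase Hs6st2 (0.131) and the homeobox gene Meox2 (0.156), out of 4425 candidates. Cdh2 stood at 0.091 ± 0.033 CPM in the null-labelled and 54.7 ± 2.20 CPM in the wild-type-labelled libraries (SD, n = 3 each). For Enpp2 they were the ephrin Efnb2 (0.079), the interferon-induced Isg15 (0.113) and Fam129a (0.118). Efnb2 stood at 2.50 ± 0.229 CPM in the null-labelled against 64.3 ± 1.49 CPM in the wild-type-labelled libraries (SD, n = 3 each). For Lpar4 they were the potassium channel Kcnk5 (0.112), Eid2 (0.116) and the imprinted gene Peg12 (0.126). For Lpar6 they were the homeobox gene Meox1 (0.063), Rab3il1 (0.095) and Artn, a neurotrophic ligand (0.108). For Lpar2 they were the clathrin light chain gene Cltb (0.036), Tmem106c (0.050) and Rhbdd3 (0.051). The libraries fall into their label groups, so a small difference mostly records a like difference between groups. Lpar3 and Lpar5 were too scarce for this comparison.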

How the data were processed

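The deposited counts are whole numbers of reads per Ensembl gene, not normalized, and per the file headers the authors made them with featureCounts 1.6.2 from an Ensembl release 83 annotation of GRCm38 with mm10 chromosome names, summing exons per gene. These headers show no option for strand, for reads that map to several places or for reads over several genes, and the program then leaves the last 2 kinds uncounted. The submitters' processing notes name Trimmomatic 0.33, FastQC 0.11.2, Subread 1.6.2 and, at odds with the headers, featureCounts 1.2.6. The notes also name the human build hg38, beside the mouse builds GRCm38 and mm10. The labels give single reads of 51 bp.

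Symbols were matched by identifier for 46488 of 46983 genes (98.9%). Genes were kept by edgeR's filterByExpr (15199, among them all 7 members), scaled with TMM factors and compared without covariates by the robust quasi-likelihood F-test of edgeR 4.0.16 under R 4.3.3 (3 libraries a group), with Benjamini-Hochberg adjustment at 0.05. Standard errors are the absolute log2 fold change divided by the root of F. A group without counts was set at 3 counts over its 3 libraries. Ratios and bounds use counts pooled by group and scaled by the summed TMM-scaled library totals, and ratios carry exact binomial 95% intervals. RPKM use the deposited exonic lengths. Alternatives were median-of-ratios factors, DESeq2 1.42.0, no filter, over 1 CPM in 3 libraries, a replicate block and leaving out each library. The members and lists were chosen with earlier results of these data known. Named were all members, Rb1, Sphk2, per list the up to 4 genes past 0.05 that differed most (average log2 CPM 0 or above), list genes averaging 5 or above, and for each member past 0.05 with an average of at least 1 the 3 most alike genes. Plppr3, S1pr5, the receptors not tested, markers and neighbours were named after their values were seen. The test was checked on simulated data. Some genes and 1 list are not reported here.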

Additional observations from a re-analysis of the deposited data

How the results depend on the processing

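All 7 members kept their direction and their side of the 0.05 threshold under every alternative that gave a value, which were 11 each and 10 for Lpar5, not tested at over 1 CPM in 3 libraries. The log2 fold changes ranged over all alternatives from -8.68 to -8.30 for Lpar1, 0.58 to 0.67 for Lpar2, -7.85 to -5.51 for Lpar3, -11.17 to -10.44 for Lpar4, 4.96 to 7.46 for Lpar5, -2.65 to -2.49 for Lpar6 and -4.76 to -4.65 for Enpp2. Rb1, which did not pass the threshold, turned to -0.015 without wild-type-labelled replicate 3, and over the libraries left out in turn it ranged from -0.015 to 0.082. The largest adjusted p of a member under any alternative was 1.15e-05, for Lpar5 with DESeq2. Counts of genes called ranged from 5259 to 6011 higher and from 5876 to 7303 lower, and the counts of the lists stayed within 1.5 times. Replicate numbers are shared between groups, but same-numbered libraries did not deviate together (correlations of 0.012, -0.0028 and 0.018, and 3 of 6 libraries correlated best with their own number), so the numbers were not taken as pairs. With the replicate block, 5765 genes were higher and 6238 lower, and Lpar1 had a log2 fold change of -8.51. Depth limits Lpar3 and Lpar5, with 1 count in 1 of the groups, and Lpar4, for which only a bound can be given.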
